A study of Homo sapiens with 4 samples.

Results

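The baseline transcripts of WT A549 cells were described from the libraries WT 1 and WT 2, chosen by label as 2 of the 4 libraries in the study, over 23340 genes listed by symbol. A549 is an established epithelial line from a human lung carcinoma, grown here untreated in RPMI with fetal bovine serum in 6-well plates and collected before the wells were full. RNA was selected by its poly-A tail and sequenced on a HiSeq 2000. The study compared such cells with cells that lack NOCT, a phosphatase of NADP+ and NADPH, and the NOCT-KO libraries enter no value given here. No allele, selection or vector is named for the WT cells in the labels. The labels do not say whether WT 1 and WT 2 came from separate cultures, so the spread between them may be technical.

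A549 cells are widely used as a model of alveolar type II cells, the surfactant-secreting cells of the lung. The line is known to carry a changed KEAP1. KEAP1 normally holds back NRF2 (gene NFE2L2), a transcription factor that turns on genes for antioxidant enzymes, NADPH supply and detoxification. It is also known for a deletion around CDKN2A. Counts per gene do not show changes of sequence, so these were not examined beyond the level of the transcript.

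WT 1 held 41520262 counts and WT 2 held 40938066. Of the genes with counts, 99.1% and 99.2% had an even number, so 2 counts may stand for 1 fragment, and all counting intervals here were taken from halved counts. These intervals, and the limit set by a count of 0, cover counting error only. Levels of a gene are given as CPM, counts scaled to a library total of 1000000. Different genes are compared by TPM, counts per kilobase of a gene's merged exons scaled to the same total in each library. A gene is called expressed at 1 CPM or more in both libraries. A count of 0 allows up to 3 fragments per library on the same halved basis, which is 0.145 CPM in WT 1 and 0.147 CPM in WT 2.

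Of the 23340 genes, 11641 were expressed (49.9%) and 8065 had no count in either library (34.6%). Among 18728 genes matched to a protein-coding gene, 10946 were expressed (58.4%) and 5275 had no count (28.2%). Protein-coding genes held 98.5% of counts in WT 1 and 98.6% in WT 2, long noncoding RNAs 0.346% and 0.315%, and lines annotated as pseudogenes 0.374% and 0.379%. The counts were spread over many genes. The 10 most abundant genes held 5.80% in WT 1 and 5.11% in WT 2, the top 100 held 16.6% and 16.1%, and 50% of counts lay in 1016 and 1025 genes. Of the top 100 of each library, 93 genes were shared. Over the expressed genes Spearman's rho between the libraries was 0.996, a description across genes, which are not independent replicates.

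FTL had the highest level per length by merged exons, at 44981 TPM in WT 1 and 49186 TPM in WT 2. By the canonical transcript, a length added after the data were seen, FTL had 27696 and 30379 TPM and GAPDH 35231 and 13230 TPM, so that GAPDH was higher in WT 1. FTL encodes the light chain of ferritin, the iron store (hg19 chromosome 19, 49468566 to 49470136, + strand). By merged exons GAPDH, a glycolytic enzyme, followed with 30687 TPM in WT 1 and 11488 TPM in WT 2, the widest gap between libraries among the 25 highest genes. ACTG1, cytoplasmic actin, stood at 9706 and 11074 TPM, below both values of GAPDH. The heat shock proteins HSP90AA1 (6836 and 6484 TPM) and HSPA8 (4961 and 5553 TPM) came next. From there neighbours overlapped: ALDH1A1, which oxidises retinal and other aldehydes, had 4612 and 4581 TPM, and the chaperone HSP90AB1 had 4331 and 4665 TPM. The aldo-keto reductase AKR1B10 (4175 and 4071 TPM) lay within the range of the tubulin TUBA1B (3662 and 4539 TPM).

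**Figure D1:**
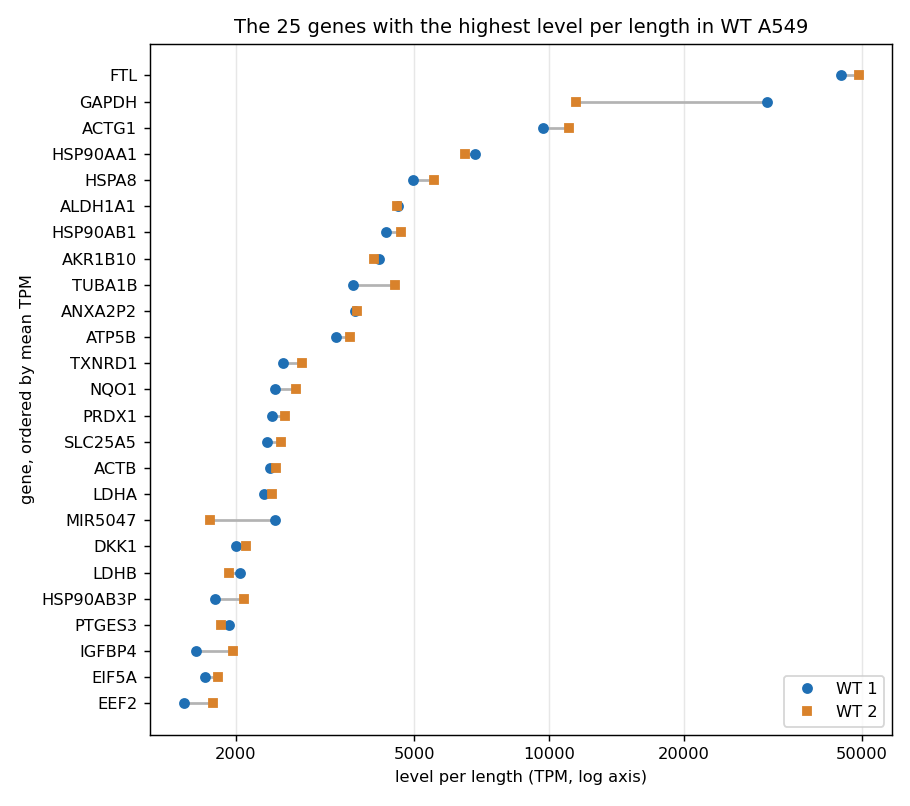
Level per length (TPM, log axis) of the 25 highest genes by merged exons in WT 1 (circles) and WT 2 (squares), ordered by their mean; the grey line joins the libraries. FTL is highest in both libraries, and GAPDH shows the longest line, from 11488 TPM in WT 2 to 30687 TPM in WT 1.

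The 25 highest genes held 15.1% of the summed TPM in WT 1 and 14% in WT 2. Besides FTL, 5 of them were on the list of NRF2 targets: ALDH1A1, AKR1B10, TXNRD1 (thioredoxin reductase, 2555 and 2815 TPM), NQO1 (a quinone reductase that uses NADPH or NADH, 2445 and 2725 TPM) and PRDX1 (a peroxiredoxin, 2411 and 2581 TPM). That list was drawn up with earlier results of these data known. Others of the 25 were the mitochondrial ATP synthase subunit ATP5B (3347 and 3607 TPM), the ADP/ATP carrier SLC25A5 (2345 and 2529 TPM) and the lactate dehydrogenase subunits LDHA (2309 and 2404 TPM) and LDHB (2040 and 1931 TPM). A pair of secreted proteins reached this group. DKK1, an inhibitor of Wnt signalling, had 2006 and 2102 TPM, and IGFBP4, which binds insulin-like growth factors, had 1628 and 1976 TPM. MIR5047, a line of 100 bases, had 2451 and 1752 TPM from 2092 and 1454 counts, so its rank depends on its short length. Whether its counts came from the microRNA or from an overlapping transcript was not tested. Levels of ACTG1, ACTB, TUBA1B and the HSP90 genes are uncertain where reads fit their close relatives.

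All 28 listed NRF2 targets were expressed, against 58.4% of protein-coding genes, with a median of 330.7 CPM against 6.85 CPM. The list was chosen with earlier results of these data known, so its share and median are a description and no test of NRF2 activity. It covers several functions. For glutathione, SLC7A11, the cystine carrier, stood at 763 and 749 CPM in WT 1 and WT 2, GCLM at 363 and 371 CPM and GCLC at 259 and 259 CPM, the last a pair of subunits of glutamate-cysteine ligase. For NADPH supply through the pentose phosphate pathway, PGD stood at 588 and 668 CPM and TALDO1 at 262 and 327 CPM. SRXN1, which repairs peroxiredoxins, had 825 and 874 CPM, and ABCC2, an export pump, had 906 and 886 CPM. HMOX1, heme oxygenase, had 6.70 and 7.77 CPM, and GPX2, a glutathione peroxidase, had the fewest counts at 3.76 and 4.45 CPM. NFE2L2 itself stood at 153 and 135 CPM and KEAP1 at 90.5 and 112 CPM.

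NOCT, the gene of the study, appears in the table as CCRN4L (hg19 chromosome 4, 139936935 to 139967093, + strand). It had 878 counts in WT 1 and 836 in WT 2, or 21.1 and 20.4 CPM, and 41.0 and 40.1 TPM. Of 39 listed genes of NAD and NADP metabolism, 29 were expressed (74.4%, against 58.4% of protein-coding genes) and 6 had no count. The highest per length were PGD, then MTHFD2, a folate enzyme of mitochondria (690 and 698 CPM). NAD kinase makes NADP+ from NAD+: the cytosolic NADK stood at 48.2 and 44 CPM and the mitochondrial NADK2 at 102 and 99.4 CPM. Expressed enzymes that make NAD or its precursors included NAMPT (118 and 117 CPM), QPRT (45.2 and 48.8 CPM), NADSYN1 (21.9 and 25.5 CPM), NMNAT1 (13.8 and 14.3 CPM) and NAPRT (7.32 and 7.47 CPM), while NMNAT3 was under 1 CPM. HDDC3, which encodes MESH1, another NADPH phosphatase, had 4.82 and 4.05 CPM. CD38, IDO1, HAAO, ACMSD, NMRK2 and ALDH1L1 had no count. Of 25 clock genes 21 were expressed (84%). Among them CLOCK had 38.4 and 35.2 CPM, BMAL1 had 9.39 and 9.82 CPM, and its relative BMAL2 had 127 and 136 CPM; RORB and CIART had no count.

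The surfactant protein genes, which define the cells that the line is used to model, had no count. Of 16 alveolar type II markers 3 were expressed (18.8%, against 58.4% of protein-coding genes). No count was found for 8, namely the 5 surfactant protein genes (SFTPA1, SFTPA2, SFTPB, SFTPC and SFTPD), SLC34A2, the phosphate carrier, CLDN18 and PGC. NKX2-1, the transcription factor of lung identity, had 6 counts in WT 1 and 0 in WT 2. The 3 expressed were LPCAT1, a lipid-remodelling enzyme of surfactant (117.7 and 114.3 CPM), ETV5, a transcription factor (59.3 and 60.4 CPM), and ABCA3, the lipid pump of lamellar bodies (51.1 and 59.1 CPM). Of 10 type I markers 5 were expressed (50%), near the share of all protein-coding genes. These were CAV1, which forms caveolae, at 407 and 393 CPM, EMP2 at 137 and 149 CPM, CAV2 at 91.9 and 86.2 CPM, AKAP5 and RTKN2. PDPN, AQP5, HOPX and CLIC5 had no count. AGER had none either, but it lies in a stretch of chromosome 6, described after the driver genes, where most genes had none. Airway lists were sparser than the type I list. Of 11 club and mucous markers only AGR2 (50.5 and 53.3 CPM) and FOXA3 (10.8 and 13.0 CPM) were expressed, of 10 ciliated markers only DNAH5 (5.83 and 5.13 CPM), and of 10 basal markers none. Of 12 neuroendocrine markers 3 were expressed, led by UCHL1, a ubiquitin hydrolase, at 132 and 124 CPM. NEUROD1 and INSM1, transcription factors of that class, had no count.

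**Figure D2:**
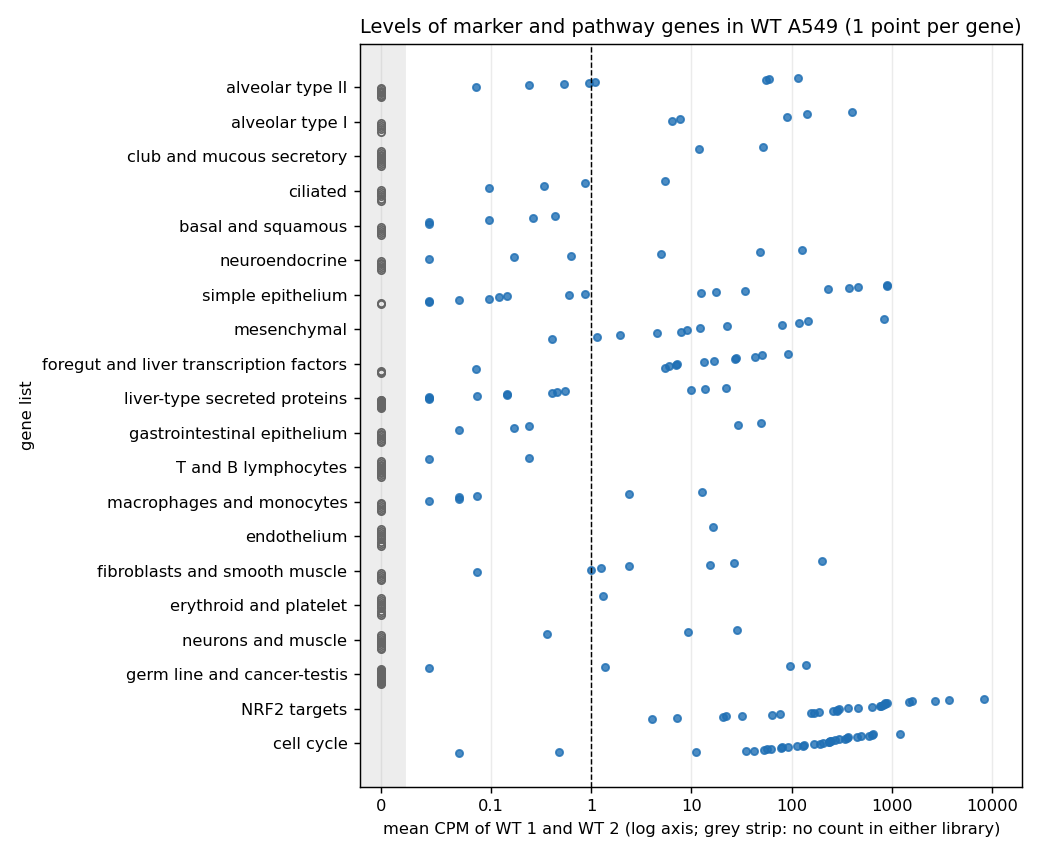
Mean CPM of WT 1 and WT 2 (log axis) for each gene of 20 lists, 1 point per gene; open circles in the grey strip are genes with no count in either library and the dashed line marks 1 CPM. All 28 NRF2 targets lie to the right of the line, while 8 of 16 alveolar type II markers lie in the strip.

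Markers of epithelium and of mesenchyme were found in the same libraries. The keratins KRT18 (858 and 924 CPM) and KRT8 (821 and 948 CPM), the pair of simple epithelia, were high, as were the tight junction genes CLDN1 (454 and 457 CPM) and TJP1 (369 and 371 CPM). CDH1, E-cadherin, stood at 16.6 and 18.7 CPM. EPCAM was at 0.0963 and 0.147 CPM, KRT7 at 0.915 and 0.831 CPM, and KRT19 and CLDN3 had no count. ESRP1 and GRHL2, which maintain epithelial splicing and junctions, had 2 counts each in WT 1 and 0 in WT 2. In all 8 of 18 epithelial genes were expressed (44.4%, against 58.4% of protein-coding genes). Of 12 mesenchymal genes 10 were expressed (83.3%). They included VIM, vimentin (826 and 843 CPM), CDH2, N-cadherin (143 and 146 CPM), and ZEB1, a repressor of epithelial genes (121 and 117 CPM). The others were TGFBI, S100A4, ZEB2, FN1, TWIST1, SNAI1 and TWIST2. Per length CDH2 (80.8 and 84.1 TPM) stood above CDH1 (13.3 and 15.2 TPM) in both libraries. Beyond the lists, KRT80 had 296 and 323 CPM and KRT81 had 108 and 107 CPM, and 39 of 55 keratin genes had no count.

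Transcription factors of foregut and liver were expressed with few of their secreted products. Of 15 such factors 11 were expressed (73.3%, against 58.4% of protein-coding genes). Per length FOXA2 (89.4 and 94.4 CPM), HNF4G (51.9 and 48.7 CPM) and SOX9 (25.2 and 29.4 CPM) led, with HNF4A lower (40.2 and 46.4 CPM). CDX2, the factor of the intestine, had 5.73 and 5.28 CPM. Of 22 liver-type secreted proteins 3 were expressed, the fibrinogen chains FGA (19.6 and 25.2 CPM) and FGB (11.4 and 15.8 CPM) and the apolipoprotein APOH (10.1 and 9.92 CPM). FGG, the remaining fibrinogen chain, was at 0.434 and 0.489 CPM. ALB, AFP, TF, APOB and HP had no count. Of 12 gastrointestinal genes only ANXA10 (53.6 and 46.0 CPM) and CDH17 (29.2 and 29.3 CPM) were expressed. The HOX genes mark position along the body axis. Of them 7 of 11 in HOXA (63.6%), 6 of 10 in HOXB (60%) and 5 of 9 in HOXC (55.6%) were expressed. These shares were near the 58.4% of all protein-coding genes, while in HOXD 1 of 9 was expressed (11.1%). HOXC8 was the highest by counts at 141 and 160 CPM, followed by HOXA3 (39.3 and 36.0 CPM) and HOXA10 (34.1 and 31.8 CPM), and 7 of 9 HOXD genes had no count.

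Marker lists of other cell types differed in how many members had counts. PTPRC, CD3D, CD3E and MS4A1 of lymphocytes had no count, and the 12 markers together held 0.337 CPM in WT 1 and 0.195 CPM in WT 2. For macrophages CD163, CSF1R and MARCO had no count. CD68, a lysosomal protein, had 12.7 and 12.8 CPM and ITGAM 2.31 and 2.49 CPM. For endothelium 9 of 10 markers had no count, and ESAM had 17.9 and 15.2 CPM. The globin genes had no count. Of 12 fibroblast markers 5 were expressed (41.7%, against 58.4% of protein-coding genes). COL3A1 had 190 and 209 CPM and LUM 29.0 and 24.0 CPM, while COL1A2, DCN and THY1 had no count. In bulk RNA of a cell line, a low level in all cells and a high level in a few of them cannot be told apart. Of 20 germ-line and cancer-testis genes, PRAME (134 and 142 CPM), LIN28B (93.1 and 99.8 CPM) and MAGEB2 (1.30 and 1.47 CPM) were expressed and 16 had no count. Several MAGEA and GAGE genes have near-identical copies, so their zeros are uncertain. Of 393 olfactory receptors 1 was expressed and 382 had no count, and of 47 defensins all had none. Only 4 of 73 lines named HIST were expressed. Most histone transcripts lack a poly-A tail, by which this RNA was selected.

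Among 28 drivers and suppressors of lung adenocarcinoma 23 were expressed (82.1%, against 58.4% of protein-coding genes) and 4 had no count. NRAS (425 TPM) and MET, the HGF receptor (346 TPM), were highest per length, with 370 and 381 CPM and 520 and 499 CPM. EGFR stood at 108 and 109 CPM and MYC at 117 and 128 CPM. STK11, a kinase that acts on AMPK, stood at 20.2 and 21.7 CPM, and SMARCA4, a chromatin remodeller, at 9.01 and 8.45 CPM beside its relative SMARCA2 at 69.7 and 72.3 CPM. BRAF was at 5.35 and 5.52 CPM and TERT at 4.34 and 5.86 CPM. ALK and RET had no count. Of 32 cell cycle genes 30 were expressed, with TOP2A at 1256.5 and 1168 CPM and MKI67 at 643 and 625 CPM. CCND2 (0.0963 and 0 CPM) and CDKN1C (0.578 and 0.391 CPM) were not.

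On the short arm of chromosome 9 the genes with no count lay between genes with counts. CDKN2A, which encodes the cell cycle inhibitors p16 and p14ARF (21967751 to 21995300 of hg19), CDKN2B (22002902 to 22009304) and the noncoding CDKN2B-AS1 had no count in either library. MTAP, the next gene on the side of the telomere (21802635 to 21937650), had 170 and 164 counts, or 4.09 and 4.01 CPM. DMRTA1, on the side of the centromere (22446823 to 22455739), had 9.73 and 9.48 CPM. Farther out KLHL9 had 150 and 143 CPM, FOCAD had 139 and 153 CPM and PLAA had 160 and 141 CPM. Of 17 genes listed here 9 were expressed and 6 had no count, the others being HACD4 and the interferon genes IFNA1 and IFNB1.

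Of 32 receptor tyrosine kinases 20 were expressed (62.5%), near the 58.4% of all protein-coding genes. MET (346 TPM), AXL (302 TPM) and IGF1R (104 TPM) were highest per length. KIT, FLT1, KDR, ERBB4 and NTRK2 had no count. Among 48 nuclear receptors 32 were expressed (66.7%). The glucocorticoid receptor NR3C1 had 376 and 396 CPM, and ESR1 had no count. Of 42 secreted factors 25 were expressed (59.5%), again near the share of all protein-coding genes. After DKK1 these were EREG, a ligand of EGFR (779 and 745 CPM), SPP1, osteopontin (384 and 368 CPM), and IGFBP3 (223.2 and 206.1 CPM). IL6, IL1A, IL1B and CXCL10 had no count and CXCL8 had 1.25 and 1.66 CPM. Of 43 cytochrome P450 genes, with POR counted among them, 15 were expressed (34.9%). CYP24A1, which inactivates vitamin D (1173 TPM), and CYP1B1 (1061 TPM) stood far above CYP51A1 of sterol synthesis (153 TPM), and CYP3A4 and CYP2D6 had no count. Of 23 genes for virus entry 17 were expressed (73.9%), led by TFRC, the transferrin receptor, while TMPRSS2 and DPP4 had no count. Of 41 genes of nucleic acid sensing 22 were expressed (53.7%), also near the share of all protein-coding genes. The RNA sensors were RIGI at 20.1 and 17.4 CPM and IFIH1 at 0.337 and 0.0489 CPM, and ADAR, an RNA editing enzyme, had 826 and 917 CPM.

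Some zeros cannot be read as lack of expression. In the histocompatibility block of chromosome 6, with bounds (28870779 to 33421466 of hg19) set after its values were seen, 131 of 166 protein-coding genes (78.9%) had no count and 12 were expressed. In the 5 Mb before it 30 of 97 had none, in the 5 Mb after it 14 of 62, and on the rest of the chromosome 210 of 814 (25.8%). The genes at 0 included RPS18, a protein of every ribosome, and DDX39B, ABCF1, FLOT1, GNL1, CLIC1 and VARS, which most cell types use. HLA-B, HLA-E and TAP1 of antigen display had no count, and the retinoid receptor RXRB had none beside RXRA on chromosome 9 at 48.4 and 49.2 CPM. Of genes with counts, TUBB had 13.9 and 10.1 CPM, PPP1R11 17.5 and 18.1 CPM and HLA-C 3.9 and 6.06 CPM. B2M, the partner chain of HLA class I, lies elsewhere and had 379 and 342 CPM. At the tip of the X chromosome, in pseudoautosomal region 1, 14 of 15 protein-coding genes had no count, among them SLC25A6, an ADP/ATP carrier, and the surface protein CD99. The cause of these zeros was not tested. With both regions left out, 27.7% of protein-coding genes had no count.

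**Figure D3:**
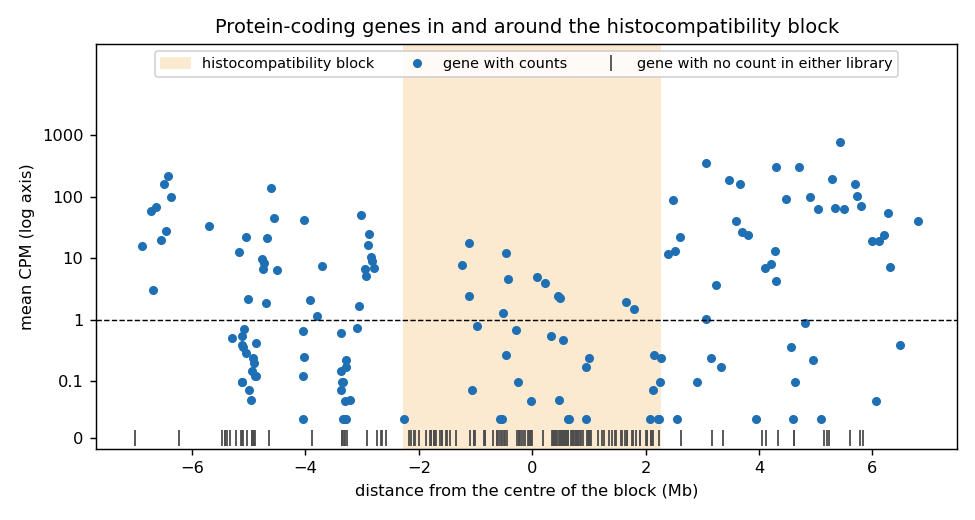
Mean CPM (log axis) of protein-coding genes against the distance in Mb from the centre of the histocompatibility block (shaded) on chromosome 6; ticks at the bottom are genes with no count in either library. Within the block 131 of 166 genes are at 0, and no gene there exceeds 20 CPM, unlike the flanks.

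Genes named for ribosomal proteins were also uneven. Of 52 of the large subunit 49 were expressed, and of 31 of the small subunit 28. These counts include paralogues such as RPL10L and RPL3L, which are known from few tissues and had no count. Of genes of the common ribosome RPL21 had no count, RPS27 had 1.25 and 1.17 CPM, and RPS28 had 1.59 and 0.782 CPM, while RPL7A had 597 and 726 CPM. Per length all 83 genes ran from 0 to 1449 TPM with a median of 122 TPM. Over all 83 genes, paralogues included, the level showed no order with the number of annotated pseudogenes of each gene, 0 to 133. Spearman's rho was 0.01 across genes, as a description. Genes of the common ribosome were not taken alone, so this value does not describe them.

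Lines for processed pseudogenes, copies of a transcript inserted elsewhere in the genome, carried counts. Of 177 such lines 56 were expressed and 6 exceeded 100 CPM. ANXA2 encodes annexin A2, which binds calcium and membranes, on chromosome 15. It had 5802 and 5038 counts, or 58.7 and 52.5 TPM. Its copy ANXA2P2 on chromosome 9, from 33624272 to 33625291 of hg19, had 32090 and 31638 counts, or 3687 and 3738 TPM, and the copies ANXA2P1 and ANXA2P3 had 45.2 and 49.5 CPM and 27.3 and 28.6 CPM. ANXA2P2 matches an ANXA2 transcript at 1004 of 1020 bases (98.4%). The pair is printed where they differ most within 1 coding exon, a window of 90 bases with 5 differences in capitals; in 64 of 90 such windows they did not differ at all.
ANXA2 (chr15:60656633-60656722, GRCh37, - strand, exon 4): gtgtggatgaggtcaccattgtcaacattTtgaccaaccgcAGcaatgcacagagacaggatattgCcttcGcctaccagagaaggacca
ANXA2P2 (chr9:33624420-33624509, GRCh37, + strand): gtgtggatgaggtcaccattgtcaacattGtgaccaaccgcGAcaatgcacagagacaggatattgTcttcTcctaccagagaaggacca

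The counts do not tell which of these loci was transcribed. HSP90AB3P, identical to HSP90AB1 at 97.2% of 2173 bases, had 802 and 918 CPM beside 2653 and 2818 CPM for HSP90AB1. PA2G4P4 (97.5% identical) had 123 and 104 CPM beside 472 and 480 CPM for PA2G4. Levels of these genes and of their copies are uncertain.

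The promoters of genes at different levels differed in base composition. RefSeq promoters (GRCh38.p14, 250 bases before to 50 after the start) were matched for 14871 protein-coding genes. The CpG ratio is the number of CG pairs over that expected from the C and G present, and a ratio of 0.6 or more marks CpG-rich promoters. It was reached by 67.4% of all promoters, by 88.7% of 53 at 1000 CPM or more in both libraries, 91.1% of 2010 at 100 to 1000 CPM, 85.2% of 6946 at 1 to 100 CPM, 49.8% of 1866 with counts below that, and 32.4% of 3996 with no count. TATAAA, on the strand of the gene from 45 to 15 bases before the start, was in 3.71% of all promoters. By class it was in 3.77% (2 of 53) at 1000 CPM or more, 1.69% at 100 to 1000 CPM, 1.25% at 1 to 100 CPM, 5.31% with counts below that and 8.26% with no count. The antioxidant response motif TGACNNNGC, searched on both strands, was in 14.3% of all promoters, 28.3% (15 of 53) of the highest class, and 6 of 20 promoters of NRF2 targets, among them PGD, GCLM, ME1 and TXNRD1 but not FTL or NQO1 in this window. A match is a description and not a bound site. The 120 bases before the start are shown for a pair of abundant genes and a pair with no count, with CG pairs in capitals; SFTPB has a further start, not shown.
FTL (chr19:48965189-48965308, GRCh38.p14, + strand): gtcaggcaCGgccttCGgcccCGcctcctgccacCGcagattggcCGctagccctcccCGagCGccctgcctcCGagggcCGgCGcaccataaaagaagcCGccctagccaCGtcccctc
ALDH1A1 (chr9:72953054-72953173, GRCh38.p14, - strand): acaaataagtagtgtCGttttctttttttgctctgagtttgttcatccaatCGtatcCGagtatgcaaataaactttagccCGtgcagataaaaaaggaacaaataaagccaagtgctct
SFTPB (chr2:85668742-85668861, GRCh38.p14, - strand): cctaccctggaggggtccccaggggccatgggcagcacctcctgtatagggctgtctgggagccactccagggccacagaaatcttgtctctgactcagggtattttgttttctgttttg
ALB (chr4:73404167-73404286, GRCh38.p14, + strand): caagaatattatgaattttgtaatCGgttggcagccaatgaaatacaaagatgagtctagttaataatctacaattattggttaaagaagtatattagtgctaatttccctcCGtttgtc

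In these stretches FTL held 12 CG pairs, ALDH1A1 held 4, SFTPB none and ALB 2. ALDH1A1, 6 by rank of all genes per length, had a promoter with a GC content of 40.3%, below the median of 66.0% in the highest class.

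WT 1 and WT 2 were close for most genes. At a mean of 5 CPM or more, 10086 genes had an SD of 0.18 for the log2 ratio of WT 1 over WT 2, and 88.1% lay within 1.2-fold. The biological coefficient of variation from edgeR's common dispersion was 8.26%. With 1 library on each side there is no replicate check, and no p-value was computed. Past 1.5-fold, 44 genes (0.436%) were higher in WT 1 and 28 (0.278%) in WT 2, and for 3 of each the whole 95% interval (exact binomial) lay past 1.5. Centred by GC content, an alternative added after the data were seen, the counts were 39 and 10. Those are of the 9911 genes with a GC content, which leave out RN45S and other lines without one. Most of the 44 and the 28 were weakly expressed. Among the 2018 genes with the lowest levels, up to a mean of 14.96 CPM, lay 34 of the 44 and 25 of the 28.

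GAPDH differed most among abundant genes, with 15112 CPM in WT 1 and 5579 CPM in WT 2, a ratio of 2.71 (95% interval 2.69 to 2.73). It took 1.51% of all counts in WT 1 and 0.558% in WT 2. The other glycolytic genes did not share this gap: of 20 at a mean of 5 CPM or more only GAPDH passed 1.5-fold, and the median log2 ratio of the list was -0.09. LDHA had 2860 and 2936 CPM, PGK1 1133 and 1295 CPM, ENO1 1130.4 and 1268 CPM, ALDOA 576 and 618 CPM and TPI1, the enzyme just before GAPDH in glycolysis, 285 and 296 CPM. GAPDH is known to have many processed pseudogenes, so its level is uncertain.

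RN45S, the line of the ribosomal RNA precursor, differed most, with 39.7 CPM in WT 1 and 283 CPM in WT 2 (ratio 0.140, 0.130 to 0.151). This RNA lacks a poly-A tail. MALAT1, a nuclear noncoding RNA, was also lower in WT 1 at 153 against 251 CPM (0.609, 0.582 to 0.636), whereas NEAT1, its neighbour in the genome and likewise nuclear, was higher in WT 1 at 537 against 395 CPM. LHFPL4 had 126 and 286 counts (ratio 0.434, 0.318 to 0.588). On the other side stood CCDC112 (14 against 7.38 CPM, ratio 1.90, 1.56 to 2.33) and RPS27L, a relative of a ribosomal protein (24.2 against 13.1 CPM, ratio 1.84, 1.58 to 2.14). The 11 host genes of small nucleolar RNAs at a mean of 5 CPM or more had a median log2 ratio of 0.37 against -0.01 for all genes. SNHG1 among them had 129 against 82.6 CPM (1.56, 1.46 to 1.65) and GAS5 88.7 against 67.3 CPM, while SNHG10 went the other way with 47.5 against 61.4 CPM. MIR17HG, host of a microRNA cluster, had 40.4 against 25 CPM, and 21 small nucleolar RNA lines had a median of 0.25, with 4 past 1.5-fold in WT 1 and 0 in WT 2.

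**Figure D4:**
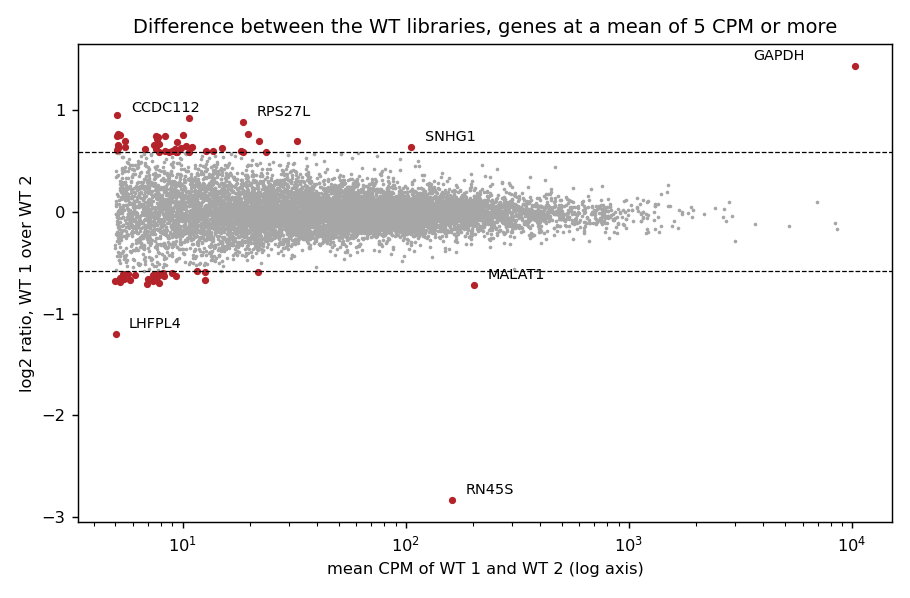
Log2 ratio of WT 1 over WT 2 against the mean CPM (log axis) for 10086 genes; dashed lines mark 1.5-fold and the 72 genes past it are red. GAPDH (15112 against 5579 CPM) and RN45S (39.7 against 283 CPM) lie far from genes of like level.

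The difference between the libraries also moved with GC content. Across 9911 genes Spearman's rho of the log2 ratio with the GC content of the exons was -0.37, a description over genes that share both libraries. Over 5 bins of equal size, the median log2 ratio fell from 0.05 in the bin with the lowest GC content to 0.02, -0.01, -0.05 and -0.10 in the following bins. Genes higher in WT 1 had a median GC content of 42.8% and those higher in WT 2 of 59.8%, against 46.6% for all. Chromosome 19, where the median GC content was 58.2%, had a median log2 ratio of -0.08, and chromosome 13, with 41.3%, had 0.06. For scale, the SD of the log2 ratio over all genes was 0.18. With each bin centred on its own median, 49 of these 9911 genes lay past 1.5-fold. The 72 genes reported came from 10086 genes, some of them without a GC content, RN45S included. The totals 72 and 49 are therefore not like for like.

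**Figure D5:**
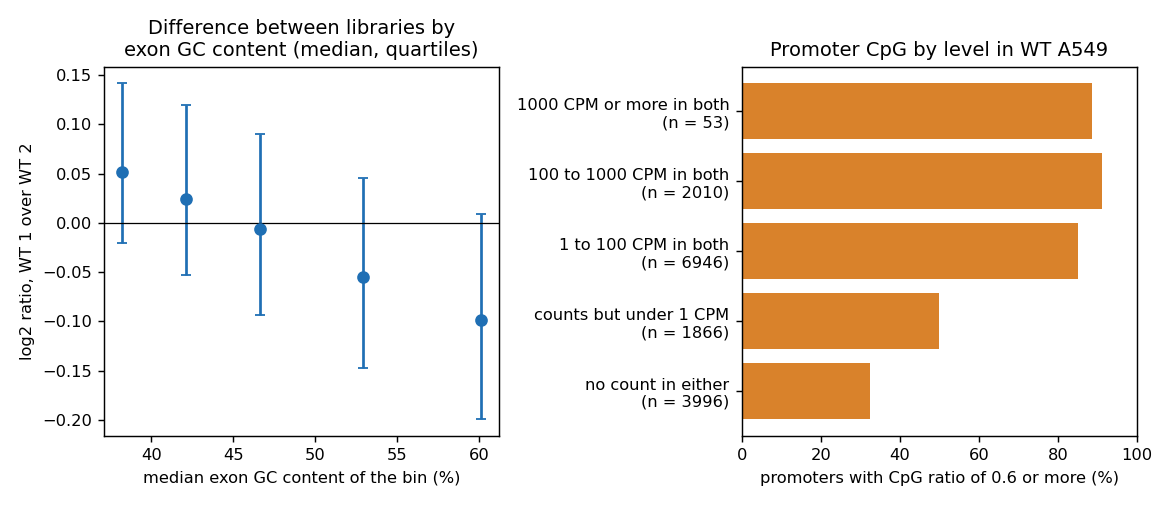
Left, median and quartiles of the log2 ratio of WT 1 over WT 2 in 5 bins of genes by exon GC content (%); right, share (%) of promoters with a CpG ratio of 0.6 or more by level in WT cells, with the number of promoters. The median falls from 0.05 to -0.10 from left to right, and the share is 32.4% for genes with no count against 91.1% at 100 to 1000 CPM.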

How the data were processed

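Raw counts for poly-A RNA of A549 cells stand in a single table that the authors deposited. The submitters' processing notes name TopHat2, HTSeq and the build hg19. Their versions, the gene models, the strand setting and the handling of reads with several matches were not given in the sources used here. Reads of overlapping or antisense genes may therefore be mixed. Of 4 sample columns the 2 WT columns were used and no column was without a sample. Of 23368 lines, 28 named by a date were left out of totals and lists (0.273% and 0.286% of counts). For lengths and positions, 19556 symbols were found as written and 1886 under a former symbol in GENCODE v44 on hg19. The remaining 1898, with 0.693% of counts, have no TPM. Depth was 41520262 and 40938066 counts.

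CPM used plain library totals without the date lines. TPM used merged exons of all transcripts. The gene lists, the thresholds and the genes described were chosen with earlier results of these data known. Named genes are the 25 highest per length, the 4 highest and the absent members of each list, the 15 largest ratios in each direction, and the whole driver and 9p21 lists; other genes (among them family members, genes of the histocompatibility block, lower list members and pseudogene copies) were picked after their values were seen. Some genes that the rule names are not reported here. Intervals are exact binomial at 95% on halved counts. Tools were R 4.3.3, edgeR 4.0.16 (dispersion, TMM), DESeq2 1.42.0 (size factors), Python 3.11.15, pandas 2.3.3, numpy 2.4.6, scipy 1.17.1 and matplotlib 3.10.9. The estimate of dispersion was tested on simulated data. No test between groups was made, since WT is a single group. Alternatives covered the level threshold, scaling, each library alone, transcript length, fold, minimum level and halved counts; centring by GC content, the canonical transcript and the 2 regions left out were added after the data were seen. NOCT-KO libraries were not analysed here. Promoters came from RefSeq (GRCh38.p14).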

Additional observations from a re-analysis of the deposited data

Results flagged for a closer look

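The 28 lines that carry a date in place of a symbol entered no count of genes, yet held counts: 113752 in WT 1 and 117398 in WT 2, or 0.28% of all counts. Of these lines 18 were at 1 CPM or more in both libraries, and the highest count in a line was 30898 in WT 1 and 32512 in WT 2. Their genes were not assigned here.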

How the results depend on the processing

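The number of expressed genes was 12185 at 0.5 CPM, 9977 at 5 CPM, 11641 with TMM and 11659 with the date lines kept, and 11785 to 11817 from a single library, all within 1.5 times the 11641 reported. Genes with no count numbered 8570 to 8740 in a single library, 8773 with up to 2 counts allowed in each and 7889 without the histocompatibility block and pseudoautosomal region 1. The top 100 genes held 16.1% to 16.6% of counts with either library left out, and 22.9% of TPM when ranked by TPM. FTL stood at 34062 TPM by its longest transcript and 29037 TPM by the canonical transcript in place of 47084, highest by the mean of both libraries, and of the 25 highest genes 20 and 17 were shared. Genes apart between the WT libraries, 72 as reported, were 3 at 2-fold, 381 at a mean of at least 1 CPM and 8 at 20 CPM, but 72 with TMM, 74 with DESeq2 size factors and 49 centred by GC content. Under TMM 45 were higher in WT 1 and 27 in WT 2, under DESeq2 size factors 48 and 26, and centred by GC content 39 and 10. The centred counts cover only the 9911 genes with a GC content, which leave out RN45S. The SD of the log2 ratio ranged from 0.15 to 0.24, and the biological coefficient of variation was 6.90% on halved counts. The log2 ratios of GAPDH (1.44 to 1.45) and RN45S (-2.84 to -2.83) hardly moved with the scaling. No paired analysis was possible because only the WT group was analysed.

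With 2 libraries the spread of a single gene is poorly known, and whether they are separate cultures is not given. Levels under about 1 CPM rest on few counts. Zeros in the histocompatibility block, pseudoautosomal region 1 and genes with near-identical copies do not show absence, and levels per length depend on the transcript assumed.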
